A study of Mus musculus with 12 samples.

Results

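The lipopolysaccharide receptor Tlr4 and 6 genes that work beside it were followed in cultures of primary microglia from mice. Microglia are the macrophages that live in brain tissue. The other 6 are Ly96, Cd14 and Lbp, which bring lipopolysaccharide to the receptor, Aoah, which inactivates it, and Cd180 and Ly86, a related receptor pair. They were chosen by symbol: each gene is read from its brightest probe set that carries no other gene symbol. All 7 were found among 19938 genes, each with 1 such probe set, and all 7 passed the filter on dim signals that left 15273 genes for testing. Values are log2 signals, so a difference of 1 is a 2-fold change, and signals of different genes were not set against each other.

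RNA from 4 groups of 3 arrays was measured, 12 arrays in all. Cells labelled wild type or TLR4 knockout spent 24 h either in control medium and oxygen or in ischemia, meaning low oxygen or low glucose. Every culture then had 24 h of normal supply, called reperfusion. Group CN is wild-type control, CH wild-type ischemia, TN knockout control and TH knockout ischemia. The CH arrays carry a source name that reads as control, while their titles and the key to the groups put them under hypoxia, and the titles were followed. The labels give no allele, strain, age or sex. Nor do they tell if replicates were separate animals or separate dishes, so the p-values cover the spread among these samples alone, and that spread may be technical.

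Within a group the correlation between arrays was at least 0.976, and having 3 arrays a group limits the precision. The wild-type arrays numbered 2 stood apart from the rest. The mean signal of 10 microglia markers was 8.97 on CN2 and 8.96 on CH2, and lay between 8.04 and 8.33 on the other 10 arrays. For 6 of these 10 markers, among them Cx3cr1, Aif1 and Fcrls, CN2 and CH2 were the highest arrays. Mean signals were 12.27 for Csf1r, 10.90 for Trem2, 9.44 for Olfml3, 9.24 for Fcrls, 8.95 for Cx3cr1, 7.88 for Aif1 and 7.43 for Sall1. P2ry12 and Tmem119, markers of resting microglia, were dimmer, at 5.75 and 6.51, and Gpr34 lay below the dim filter of 5.36. The extraction notes speak of myocytes. All 8 striated muscle markers were above the dim filter. So were 5 of 8 neutrophil markers, such as Mpo (6.04), and 3 of 6 neuron markers, such as Rbfox3 (5.98). Passing the filter alone thus does not tell expression from background. The mean of the muscle markers was 6.12 to 6.18 in CH, below CN (6.23 to 6.27) and TN (6.21 to 6.36). In TH (6.12 to 6.37) it overlapped the other groups. The part of these markers in the results was not tested. In a culture of mixed cells, fewer cells of a type and less RNA per cell cannot be told apart.

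Lipopolysaccharide is a component of the outer membrane of Gram-negative bacteria. Lbp, a serum protein made mainly by the liver, extracts it, Cd14 on the myeloid cell surface takes it over, and Ly96 (MD-2) holds it inside the Tlr4 complex, which then signals through the adaptors Myd88 and Ticam1. Cd180 (RP105) resembles the outer part of Tlr4 but lacks its signalling domain, and it reaches the surface bound to Ly86 (MD-1), the counterpart of Ly96. In myeloid cells the Cd180 and Ly86 pair is known as a brake on Tlr4, and in B cells as an activator. Aoah, acyloxyacyl hydrolase, strips secondary acyl chains from lipopolysaccharide and so ends its activity.

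The promoters of Aoah, Cd180 and Ly86 are printed because RefSeq windows (GRCm38.p6) were at hand for these 3 of the 7 genes. All 3 genes lie on the forward strand of chromosome 13, and each sequence is the 250 bases before the annotated start: chr13:20793863-20794112 for Aoah, chr13:102693297-102693546 for Cd180 and chr13:37345095-37345344 for Ly86. Capitals mark the letters GGAAGT on either strand, a longer form of the GGAA core bound by ETS factors such as the myeloid factor PU.1. The shorter GGAA was not marked or counted, and it occurs outside the capitals in all 3 windows.
Aoah: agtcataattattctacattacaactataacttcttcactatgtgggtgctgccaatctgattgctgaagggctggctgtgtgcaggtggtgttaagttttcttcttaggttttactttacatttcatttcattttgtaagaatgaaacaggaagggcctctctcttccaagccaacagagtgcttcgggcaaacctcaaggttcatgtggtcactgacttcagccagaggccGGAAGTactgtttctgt
Cd180: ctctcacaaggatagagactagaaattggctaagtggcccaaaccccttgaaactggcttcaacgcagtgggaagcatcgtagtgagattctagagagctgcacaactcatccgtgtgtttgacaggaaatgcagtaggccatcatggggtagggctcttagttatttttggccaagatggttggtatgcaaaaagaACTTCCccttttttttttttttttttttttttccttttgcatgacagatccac
Ly86: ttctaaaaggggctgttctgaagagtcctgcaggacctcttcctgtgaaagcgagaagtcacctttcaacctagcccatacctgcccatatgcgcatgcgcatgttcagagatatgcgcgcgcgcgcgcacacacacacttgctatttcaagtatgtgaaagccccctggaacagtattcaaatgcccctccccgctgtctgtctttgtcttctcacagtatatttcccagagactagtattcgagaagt
Aoah held GGAAGT on its own strand from -17 to -12, and Cd180 held it on the opposite strand from -53 to -48, counted back from the start. The Ly86 window did not hold these letters. Over 32851 promoter windows of the same length, 19.7% held GGAAGT, so its presence in 2 of 3 is a description only. GAAANNGAA, the core of the interferon response element, occurred in 7.13% of windows, TGANTCA, the AP-1 site, in 6.75%, and TTCNNNGAA, the element bound by STAT factors, in 7.02%. None of the last 3 motifs occurred in the 3 printed windows on either strand.

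**Figure D1:**
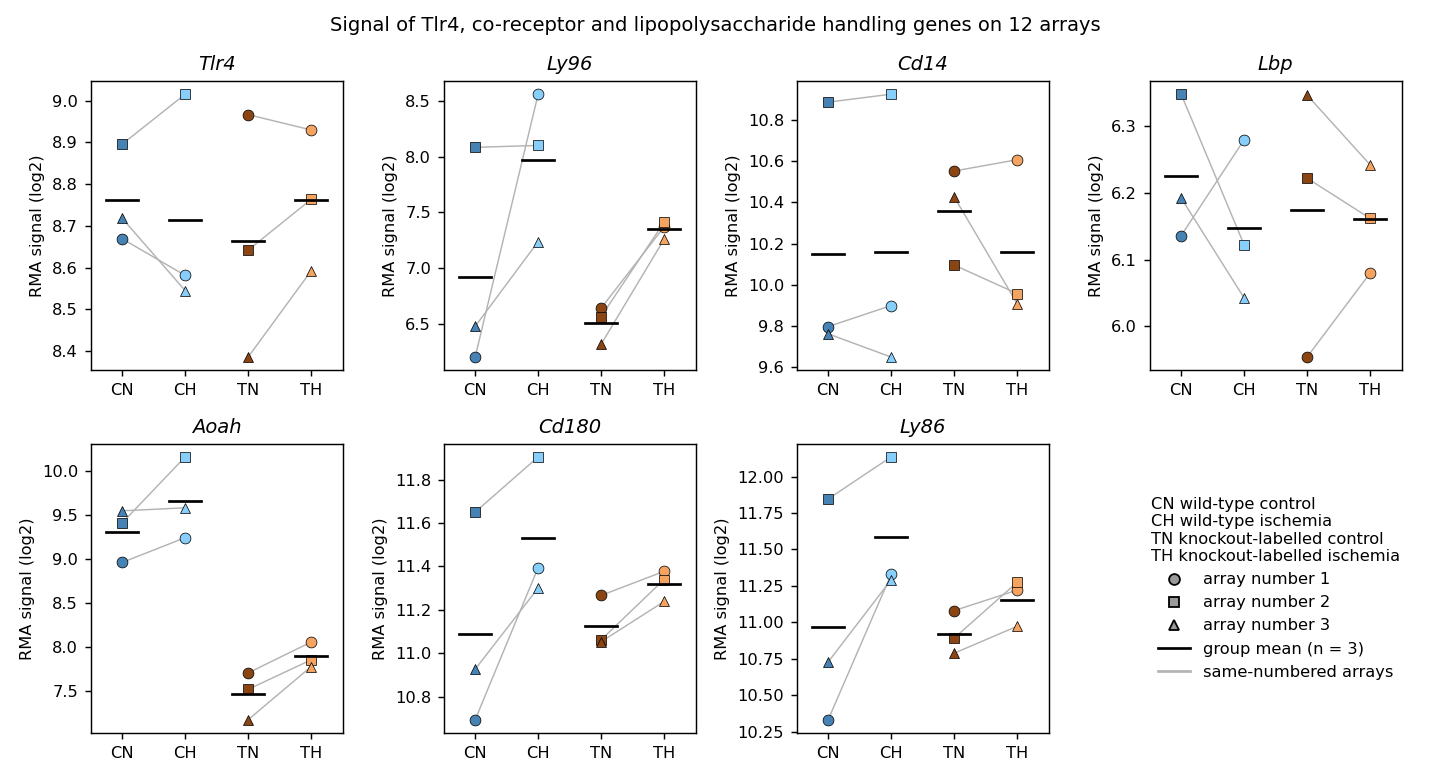
Log2 RMA signal of the 7 genes on the 12 arrays, 1 panel per gene with its own vertical axis. Points are arrays, their shape gives the array number, grey lines join same-numbered control and ischemia arrays, and black bars are means of 3 arrays. Aoah is the gene whose wild-type arrays (8.96 or more) all lie above its knockout-labelled arrays (8.05 or less), and Tlr4 shows no such step.

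Tlr4, the gene the labels name as knocked out, was not lower in the knockout-labelled arrays. Its signals were 8.67, 8.90 and 8.72 in CN and 8.58, 9.02 and 8.54 in CH. They were 8.97, 8.64 and 8.39 in TN and 8.93, 8.76 and 8.59 in TH. All 4 groups overlapped. The genotype difference, knockout-labelled minus wild type over both conditions, was -0.02 (95% limma interval -0.27 to 0.23; exact two-sided permutation p = 0.851, 6 against 6 arrays). Over means of same-numbered arrays, 3 against 3, the exact permutation p was 0.9, where 0.1 is the smallest this design can give. A probe set outside the altered stretch of the gene would check nothing, and the place of that stretch was not given in the sources used here. The arrays are called knockout-labelled throughout for this reason.

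Tlr4 also showed no detectable response to ischemia. Ischemia minus control was -0.09, 0.12 and -0.17 in wild-type pairs 1 to 3 and -0.04, 0.12 and 0.21 in the knockout-labelled pairs. The mean differences were -0.05 in wild type and 0.10 in knockout-labelled cells (SE 0.16 each; limma adjusted p = 0.910 and 0.847, and 0.794 and 0.620 with the block). The ischemia array was the higher in 3 of 6 pairs. TN minus CN was -0.10 and TH minus CH 0.05, neither past the test.

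Aoah was the member that separated the genotypes. Its signals were 8.96, 9.41 and 9.55 in CN and 9.24, 10.16 and 9.58 in CH. In the knockout-labelled cells they were 7.70, 7.52 and 7.17 in TN and 8.05, 7.85 and 7.77 in TH. The lowest wild-type array stood 0.91 above the highest knockout-labelled array, and no group of one genotype overlapped a group of the other.

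In control cells Aoah was 3.58-fold lower in TN than in CN, a difference of -1.84 on the log2 scale (SE 0.22, 95% interval -2.32 to -1.36; limma adjusted p = 0.0112). This was the gene with rank 2 by p among 15273, in a comparison that called 0.0589% of genes. After ischemia it was 3.40-fold lower in TH than in CH, a difference of -1.77 (SE 0.22, 95% interval -2.25 to -1.29; limma adjusted p = 0.00268), in a comparison that called 0.714% of genes. Averaged over both conditions the difference was -1.80 (SE 0.16; limma adjusted p = 0.000117), or 3.49-fold. Of the 7 members Aoah was the 1 that fell in this comparison and none rose, while 1.11% of all genes tested fell. It also fell with a random block (adjusted p = 0.000156) and over pair means (adjusted p = 0.0267), where 0.832% and 0.0851% of genes fell. Groups of 6 that do not overlap, with the knockout-labelled arrays lower, were found for 1.09% of genes.

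The Aoah difference was called in 22 of 22 settings for TH against CH and for the mean over conditions, of which the highest adjusted p was 0.0243 and 0.0267. The call in control cells was lost when only CN and TN were fitted (adjusted p = 0.0591), without CN3 (adjusted p = 0.0834) and without TN3 (adjusted p = 0.0843). Without CN2 and CH2 the mean difference was -1.65 (limma adjusted p = 2.79e-05, no block). That fit counts same-numbered arrays as separate samples, which may overstate its precision. Among cell markers, 9 microglia genes tested had a median genotype difference of -0.24, with 2 higher and none called. The mean over 9 monocyte and border macrophage markers, 6 of them above the dim filter, lay between 6.65 and 6.86 on the knockout-labelled arrays and between 6.93 and 7.11 on the wild-type arrays. Most of that gap came from Clec4n (8.92 to 9.94 against 9.71 to 11.03) and Ms4a7 (8.64 to 9.87 against 9.46 to 10.65). No single marker of the 9 separated the genotypes, and Lyve1 was not lower in the knockout-labelled arrays. The part of cell makeup in the Aoah difference was not tested.

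Aoah was also higher after ischemia in each of the 6 same-numbered pairs. The differences were 0.28, 0.75 and 0.03 in wild type and 0.35, 0.34 and 0.60 in knockout-labelled cells. The ischemia effect did not differ detectably between genotypes, with a difference of effects of 0.07 (95% interval -0.60 to 0.75). Without pairing, the mean difference over both genotypes of 0.39 (SE 0.16) did not pass the test (limma adjusted p = 0.193). With each genotype and number as a block it did (SE 0.09, limma adjusted p = 0.0162). That call was lost without the knockout-labelled pairs 2 (adjusted p = 0.0519) or 3 (adjusted p = 0.0588), and within 1 genotype alone neither difference passed (adjusted p = 0.114 and 0.108 with the block).

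Same-numbered arrays of a genotype deviated together, and the ischemia calls of the members differed between fits with and without the block. With it, 4 of 7 members rose over both genotypes, namely Ly96, Aoah, Cd180 and Ly86, where 9.11% of all genes tested rose. With a random block Ly96 alone rose, against 5.37% of genes, and without a block no member did, against 0.00655% called; 2 members then had an unadjusted limma p under 0.05. The same 4 members were higher in all 6 pairs, as were 10.7% of genes. Tlr4 and Cd14 were higher in 3 pairs and Lbp in 2.

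**Figure D2:**
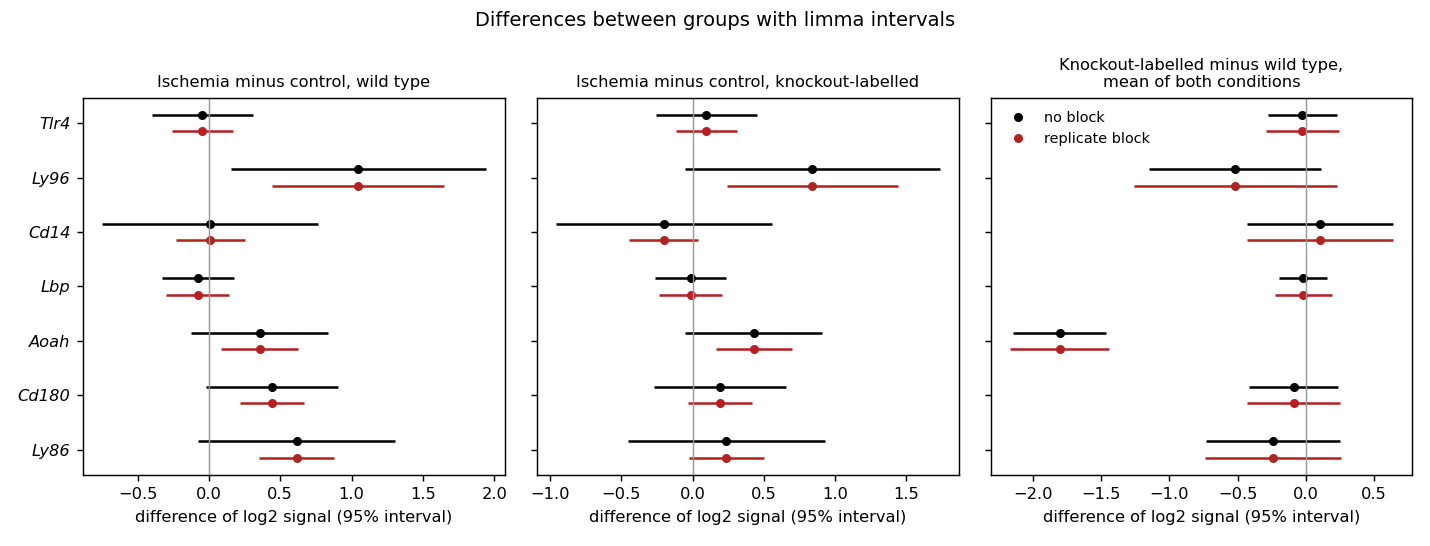
Differences of log2 signal with 95% limma intervals for the 7 genes, as ischemia minus control in wild type (left) and knockout-labelled cells (middle) and as knockout-labelled minus wild type over both conditions (right). Black intervals come from the fit without a block; red intervals have each genotype and number as a block (left, middle) or as a random block (right). Aoah at -1.80 is the gene whose genotype interval lies away from 0. The ischemia intervals of Ly96, Aoah, Cd180 and Ly86 narrow with the block, and so do those of members that were not called, such as Cd14.

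Ly96, the co-receptor that binds lipopolysaccharide within the Tlr4 complex, had the largest ischemia difference of the 7. Its signals were 6.20, 8.08 and 6.48 in CN and 8.56, 8.10 and 7.24 in CH, so that array CN2 lay within the range of CH. In the knockout-labelled cells they were 6.64, 6.56 and 6.31 in TN and 7.37, 7.41 and 7.26 in TH, and these groups did not overlap. TH lay wholly above TN for 7.94% of genes. The range of Ly96 over the 12 arrays, 2.36, was among the widest of the genes tested, wider than 98.98% of them.

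The differences by pair, ischemia minus control, were 2.36, 0.02 and 0.76 in wild type, with an SD of 1.20. In the knockout-labelled cells they were 0.73, 0.85 and 0.94, with an SD of 0.11. The mean difference was 1.05 in wild type (2.07-fold, SE 0.41; limma adjusted p = 0.295, and 0.0548 with the block). In the knockout-labelled cells it was 0.84 (1.79-fold, SE 0.41, limma adjusted p = 0.571, and 0.140 with the block). This SE pools the spread of both genotypes, so it does not measure the spread of the knockout-labelled cells alone. Of 7 fits with the block, with all pairs or 1 left out, 1 called the knockout-labelled difference (limma adjusted p = 0.0127). The effects of the 2 genotypes differed by -0.21 (95% interval -1.47 to 1.06), an interval too wide to tell a larger from a smaller response. Averaged over genotypes the difference was 0.94 (1.92-fold), which passed with the block (adjusted p = 0.0126) and with a random block (adjusted p = 0.0384) but not without one (adjusted p = 0.149). It passed with the block in each of the 6 fits that left out 1 pair.

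The wild-type value of Ly96 turned on which pairs were kept. Over 7 fits with the block, with all pairs or with 1 left out, CH minus CN ran from 0.39 to 1.56. The lowest value came without wild-type pair 1. The highest limma adjusted p was 0.330, and 1 of these fits passed. Without CN2 the difference CH minus CN was 1.63 (limma adjusted p = 0.0399). Without both arrays numbered 2 it was 1.56 (adjusted p = 0.0502, and 0.00895 with the block). The genotype difference of Ly96 was -0.52 (95% interval -1.15 to 0.11), and -0.19 without the arrays numbered 2; neither passed the test.

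Cd180 and Ly86, the receptor and the partner that carries it to the cell surface, ran in parallel. Cd180 read 10.69, 11.65 and 10.93 in CN and 11.39, 11.90 and 11.30 in CH. It read 11.27, 11.06 and 11.05 in TN and 11.38, 11.34 and 11.24 in TH. Ly86 read 10.33, 11.85 and 10.73 in CN and 11.33, 12.13 and 11.29 in CH. It read 11.08, 10.89 and 10.79 in TN and 11.22, 11.27 and 10.97 in TH. For both genes CN1 was the lowest array and CH2 the highest, and within each genotype the control and ischemia groups overlapped.

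The differences by pair, ischemia minus control, were 0.70, 0.25 and 0.37 for Cd180 in wild type and 1.00, 0.29 and 0.56 for Ly86. In the knockout-labelled cells they were 0.11, 0.28 and 0.19 for Cd180 and 0.14, 0.38 and 0.18 for Ly86. With the block, Cd180 rose by 0.44 in wild type (1.36-fold, SE 0.10; limma adjusted p = 0.0333) and Ly86 by 0.62 (1.53-fold, SE 0.12; limma adjusted p = 0.0161). These were 2 of 7 members, in a comparison that called 2.99% of genes higher. With a random block, which takes one estimated correlation for all genes and called 0.596% of genes higher, neither passed (adjusted p = 0.123 and 0.137). Without a block neither passed (adjusted p = 0.355 and 0.381), in a fit that called 0.0131% of genes. Both calls were lost without wild-type pair 1 (adjusted p = 0.314 and 0.191) and without pair 3 (adjusted p = 0.102 and 0.0612), and that of Cd180 also without the knockout-labelled pair 2 (adjusted p = 0.0558).

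In knockout-labelled cells the differences were 0.19 for Cd180 and 0.24 for Ly86, neither past the test with the block (limma adjusted p = 0.338 and 0.312), which called 0.648% of genes. Without the block 0% of genes were called. Whether the response differed between genotypes was not settled: the difference of effects was -0.25 for Cd180 (95% interval with the block -0.57 to 0.07) and -0.38 for Ly86 (-0.75 to -0.01), with adjusted p = 0.660 and 0.582. Over both genotypes the differences were 0.32 and 0.43 (adjusted p = 0.0184 and 0.0114 with the block). They were not called with a random block (0.0797 and 0.0980), without wild-type pair 1 (0.0924 and 0.05) or without knockout-labelled pair 2 (0.0822 and 0.0585). Genotype differences were -0.09 and -0.24, both uncalled, and without the arrays numbered 2 they were 0.14 and 0.12, also uncalled.

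Cd180 and Ly86 had Pearson r = 0.987 over the 12 arrays and 0.992 for deviations from the group means. The r was 0.997 within the 6 wild-type and 0.943 within the 6 knockout-labelled arrays. Ly96 followed them less closely, at r = 0.834 with Cd180 and 0.830 with Ly86. Aoah had r = 0.473 with Ly86 over all arrays, against 0.731 within wild type and 0.883 within knockout-labelled arrays, where the step between genotypes does not enter. These values describe 12 points that share arrays and normalization. Because B cells also carry Cd180 and Ly86, B cell markers were read: the mean of 7 lay between 5.20 and 5.44 on every array. Of the 7, Cd79b (5.87), Pax5 (5.89), Blk (5.81) and Vpreb3 (6.05) were above the dim filter on average, and Ms4a1 (4.07), Cd79a (4.57) and Fcer2a (4.92) were below it.

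**Figure D3:**
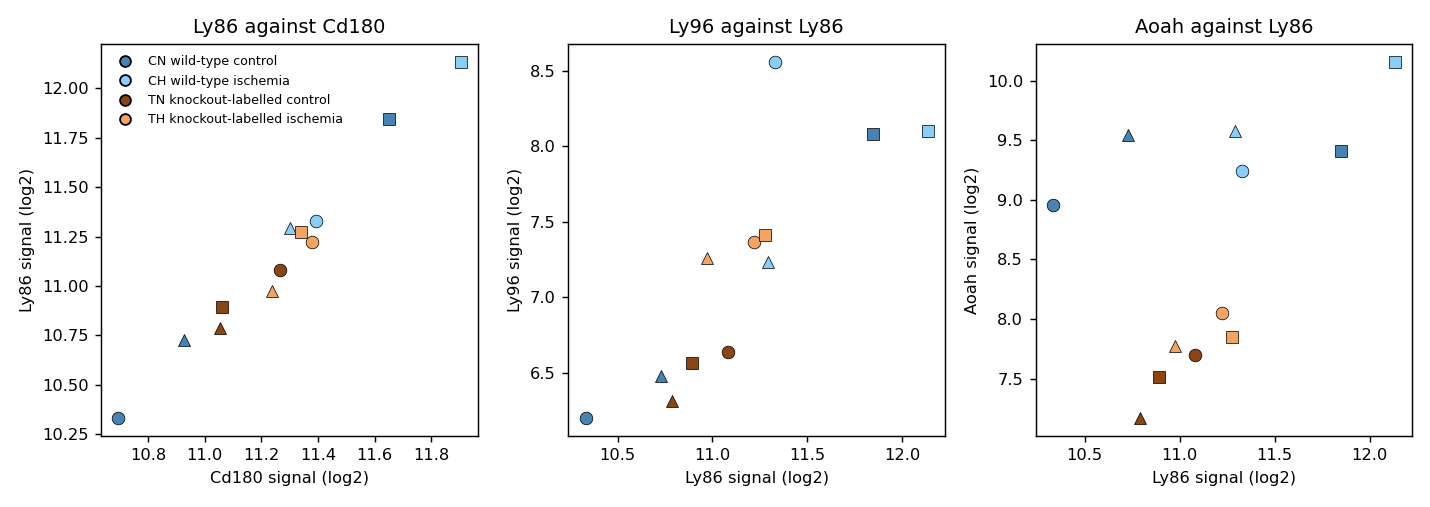
Log2 signals of Ly86 against Cd180 (left), Ly96 against Ly86 (middle) and Aoah against Ly86 (right) on the 12 arrays. Colours are groups, and circles, squares and triangles are array numbers 1, 2 and 3. Cd180 and Ly86 form 1 line (r = 0.987), while Aoah splits into a wild-type and a knockout-labelled band.

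Cd14, the surface protein that hands lipopolysaccharide to Tlr4 and Ly96, varied more among the arrays of a group than between the group means. Its signals were 9.80, 10.89 and 9.76 in CN and 9.90, 10.93 and 9.65 in CH. They were 10.55, 10.10 and 10.43 in TN and 10.61, 9.96 and 9.91 in TH. CN2 and CH2 were its highest arrays, about 1 log2 unit above the other 4 wild-type arrays (9.65 to 9.90). Ischemia minus control was 0.01 in wild type (95% interval -0.75 to 0.77) and -0.20 in knockout-labelled cells (-0.96 to 0.56); with the block the intervals were -0.23 to 0.25 and -0.44 to 0.04. The genotype difference was 0.11 (SE 0.25; limma adjusted p = 0.888). Without the arrays numbered 2 it was 0.48 (adjusted p = 0.0973). The 6 knockout-labelled arrays (9.91 to 10.61) then lay above the 4 remaining wild-type arrays by a very small margin (9.91 against 9.90). With all arrays kept the genotypes overlapped. The arrays numbered 2 were left out after the values were seen. How many of all genes separate in this way was not counted, so no genotype step is read from it.

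Lbp, the serum protein that loads lipopolysaccharide onto Cd14, stayed between 5.95 and 6.35 on the 12 arrays, not far above the dim filter. Its signals were 6.14, 6.35 and 6.19 in CN, 6.28, 6.12 and 6.04 in CH, 5.95, 6.22 and 6.35 in TN, and 6.08, 6.16 and 6.24 in TH. All groups overlapped. The genotype difference was -0.02 (95% interval -0.20 to 0.16) and the ischemia difference over both genotypes -0.05 (-0.22 to 0.13, and -0.20 to 0.11 with the block). Of 4 liver markers, Apoa1 had a mean signal of 6.33, above the filter, while Alb (4.38), Ttr (5.13) and Ahsg (5.33) were below it.

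For each member the 3 genes with the most similar profile over the 12 arrays were taken by Pearson r, as a description with no test. Tlr4 ran with Spred1, an inhibitor of Ras signalling (r = 0.986), Sinhcaf (0.969) and Plekha8 (0.966). Ly96 ran with Ints9 (0.941), Srgn, the core protein of secretory granules (0.940), and Kiz (0.933). Cd14 ran with Sncaip (0.958), Plcb4 (0.946) and the chemokine Ccl4 (0.932). Lbp had only weaker partners, Ppifos at 0.830, H2ac15 at 0.784 and Slc35d3 at 0.772.

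Aoah ran with Sirpa, an inhibitory receptor of myeloid cells (r = 0.954), Nampt, an enzyme of NAD salvage (0.953), and Akr1b8, an aldose reductase relative (0.952). Their r for deviations from the group means was 0.665, 0.642 and 0.758, lower than over the arrays as they stand. Nampt was itself lower in the knockout-labelled arrays by -0.54 (limma adjusted p = 0.00421) and Akr1b8 by -0.49 (adjusted p = 0.0102). Cd180 and Ly86 each had the other as closest gene. Next came Ifnar2, a chain of the type I interferon receptor (r = 0.983 with Cd180 and 0.978 with Ly86), then AW554918 for Cd180 (0.969) and Fen1, a nuclease of DNA replication, for Ly86 (0.970).

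The rest of the lipopolysaccharide pathway was read from a list of 74 genes sorted by role, of which 62 were tested. The list was chosen with earlier results of these data known. Its counts beside the shares of all genes are therefore a description and no test of the pathway. Averaged over both conditions, 11 of the 62 fell in the knockout-labelled arrays and none rose, where 1.11% of all genes fell, with a median difference of -0.11 against 0.01 for all genes tested. With a random block 8 fell (0.832% of all genes), and over pair means 4 did (0.0851% of all genes): Acod1, Saa3, Ccl5 and Ikbke (limma adjusted p = 0.00469, 0.0422, 0.0426 and 0.0430). In control cells 3 fell (Acod1, Saa3 and Ikbke), where 0.0589% of all genes were called in either direction, and after ischemia 8 fell, where 0.714% were.

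The lipopolysaccharide-inducible targets held most of these genes: 7 of 17 fell, against 1.11% of all genes, with a median of -0.73. These targets too were listed with earlier results known, so that contrast is a description only. Ccl5, a chemokine, fell by 3.55 and Irf7, the interferon regulator, fell by 3.07. Acod1, which makes itaconate, fell by 1.91, Saa3, an acute phase protein, fell by 1.55, and Lcn2, which binds bacterial siderophores, fell by 1.27. Tnf fell by 0.51 and Irf1 fell by 0.43, the latter 2 not called with a random block. Acod1 lay between 7.87 and 9.17 on the wild-type arrays and did not exceed 6.86 on the knockout-labelled arrays, so that the genotypes did not overlap. The same held for Ccl5, Irf7, Saa3, Lcn2 and, by a very small margin, Tnf, while Irf1 overlapped. Such groups, with the knockout-labelled arrays lower, were found for 1.09% of all genes.

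Among the signalling genes few passed, in the same comparison, where 1.11% of all genes fell. Of 13 kinases and ligases 1 fell, Ikbke, by 1.04. Of 4 adaptors 1 fell, Myd88, by 0.34, and it was not called with a random block. Of 7 brakes 2 fell, Nfkbia by 0.64 and Irak3 by 0.51, both also with a random block. None of 8 chaperones and trafficking genes of Toll-like receptors passed, nor did any of 13 other genes of lipopolysaccharide binding, uptake and inactivation; 1 and 4 of them had an unadjusted limma p under 0.05.

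**Figure D4:**
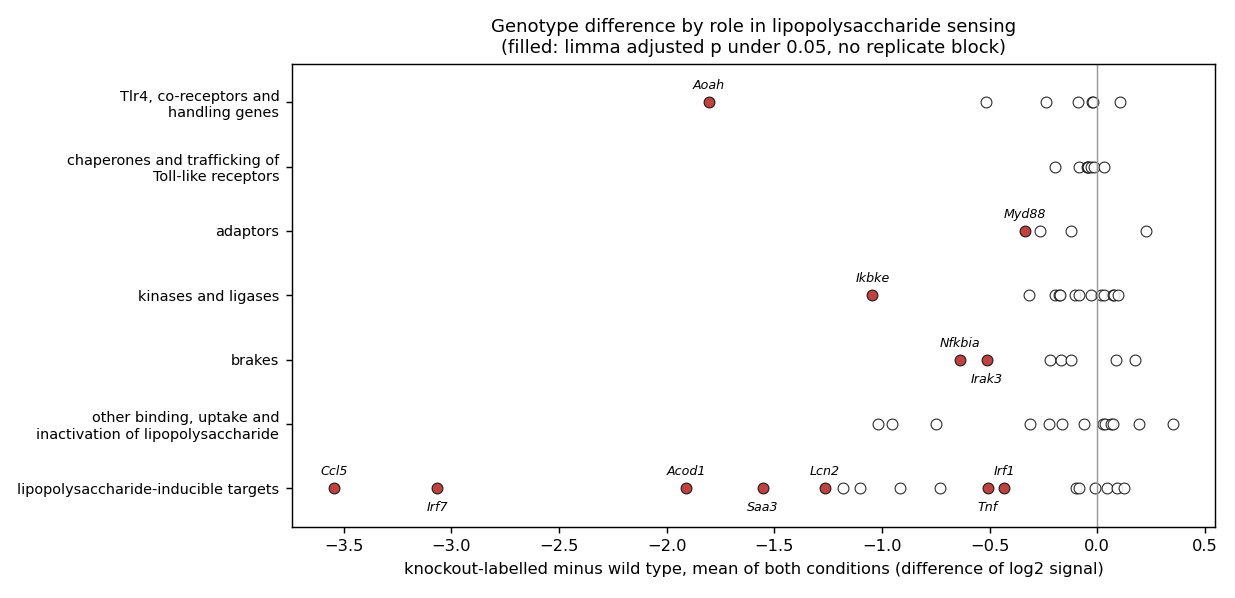
Genotype difference of log2 signal, knockout-labelled minus wild type over both conditions, for the 7 genes (top row) and the 62 tested pathway genes by role. Each point is a gene, and filled points passed the limma test without a block. Aoah lies at -1.80 in its row, and the targets reach from Ccl5 at -3.55 to values near 0.

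After ischemia, 0 of the 62 pathway genes passed in wild type without the block, where 0.0131% of all genes were called. By limma, 9 of the 62 had an unadjusted p under 0.05. With the block 9 rose, where 2.99% of all genes rose, among them Ccl5 (1.57), Irf7 (1.63), Fcgr1, a receptor for IgG (0.99), and Gbp5, a guanylate-binding protein (0.94). With a random block 3 rose, Irf1, Ccl5 and Acod1 (limma adjusted p = 0.0401 for Irf1, and just under the threshold for the other 2), where 0.596% of all genes rose, and Irf7, Fcgr1 and Gbp5 were not called. In knockout-labelled cells none passed without the block, with it or with a random block, where 0%, 0.648% and 0.00655% of all genes were called. The unadjusted limma p was under 0.05 for 3, 15 and 9 of the 62.

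The difference of effects passed with the block for 3 of 62, Ccl5 (-1.93), Irf7 (-1.75) and Fcgr1 (95% interval -1.36 to -0.64), in a comparison that called 0.308% of genes, and for none of the 7 members (1 had an unadjusted limma p under 0.05). These 3 calls were lost with a random block (limma adjusted p = 0.676 for Ccl5 and Irf7) and without a block, fits that called 0% of genes; 8 and 4 of the 62 then had an unadjusted p under 0.05. Over both genotypes 10 of 62 rose with the block, where 9.11% of all genes rose, among them Cnpy4, the 1 of 8 Toll-like receptor chaperones and trafficking genes called. With a random block 3 rose (Irf1, Msr1 and Saa3), where 5.37% of all genes rose, 1 fell (Adgrb1), and Cnpy4 was not called. Without a block none passed, where 0.00655% of all genes were called. By limma, 12 of the 62 had an unadjusted p under 0.05.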

How the data were processed

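Each of 12 RNA samples went on its own array (Affymetrix Mouse Gene 1.0 ST). The deposited values are log2 signals from RMA, run by the authors in Affymetrix Expression Console 1.1 (per the submitters' processing notes); RMA corrects background, normalizes by quantiles and summarises probes. RMA brings arrays to a common distribution, so differences in total RNA are not seen. Values lay between 1.25 and 14.5, and medians of arrays between 6.30 and 6.40. The annotation's genome build was not given in the sources used here.

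Of 35557 probe sets, 21789 carried 1 gene symbol; 1621 with several symbols and 12147 without a listing stayed unnamed. The brightest probe set stood for each of 19938 genes, and genes whose mean did not exceed 5.36, the 30th percentile of probe sets, were dropped. In R 4.3.3, limma 3.58.1 (lmFit, eBayes) fitted group means over the 12 arrays, with Benjamini-Hochberg adjustment over 15273 genes and a threshold of 0.05. Differences are of log2 signal.

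Pairing was checked by correlating deviations from group means. Same-numbered control and ischemia arrays had r = 0.48, 0.73 and 0.48 in wild type and 0.36, 0.32 and 0.49 in knockout-labelled cells, each above 0.1. Arrays with different numbers had r from -0.62 to 0.40 in wild type and from -0.44 to 0.22 in knockout-labelled cells. Some of these also exceeded 0.1, though none reached a same-numbered value of its genotype. The numbers were therefore taken to pair arrays within a genotype, on the data alone. Between genotypes same-numbered arrays had r from -0.33 to 0.33, and the numbers were not taken to pair them. Genotype fits without a block count the same-numbered arrays of a genotype as separate samples. Their intervals and p-values may therefore overstate the precision. Alternatives were replicate blocks (within genotype, 3 levels, random), pair means, filters, normalization, moderation of the spread and leaving out arrays or pairs; pair means, arrays numbered 2 left out and the ischemia mean over genotypes were added after the values were seen.

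The 7 genes are always described. Likeness takes the 3 highest r, and pathway genes are named when called. The members and lists were chosen with earlier results of these data known. The steps were tested on simulated data with known changes.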

Additional observations from a re-analysis of the deposited data

How the results depend on the processing

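Counts of called genes depended on how same-numbered arrays were treated. The replicate block within genotype gave 570 genes for CH minus CN (2 without it), 99 for TH minus TN (0 without it, where 1334 had an unadjusted limma p under 0.05), 47 for the difference of effects (0 without it, 443 unadjusted) and 1904 for the ischemia mean (1 without it). The 3-level block gave 1 for TH minus TN, 31 for TN minus CN (9 without it), 236 for TH minus CH (109), 401 for the genotype mean (207) and 7 for the ischemia mean. The random block gave 118, 1 and 14 for CH minus CN, TH minus TN and TN minus CN, and 1234 for the ischemia mean. Pair means gave 15 for the genotype mean. Fitting only the groups compared gave 1 for CH minus CN and 0 for TN minus CN. Quantile normalization gave 1 for CH minus CN.

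Without both wild-type arrays numbered 2, counts were 80 for CH minus CN, 100 for TN minus CN, 295 for TH minus CH, 1 for the difference of effects, 591 for the genotype mean and 182 for the ischemia mean. Leaving out 1 array gave 1 to 79 genes for CH minus CN, 0 to 23 for TN minus CN, 25 to 158 for TH minus CH, 107 to 261 for the genotype mean, 0 to 315 for the ischemia mean and 0 to 1 for the difference of effects. Leaving out 1 pair in the blocked fit gave 143 to 767, 2 to 753, 20 to 49 and 371 to 2889 for CH minus CN, TH minus TN, the difference of effects and the ischemia mean.

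Differences that passed no test changed sign in some settings. After quantile normalization Cd14 CH minus CN was -0.061 and the Tlr4 genotype difference 0.0197 (in the permutation test also 0.0197), and after median centring Tlr4 CH minus CN was 0.013. Without both arrays numbered 2, Cd14 CH minus CN was -0.0053, and the genotype differences were 0.085 for Tlr4, 0.0051 for Lbp, 0.14 for Cd180 and 0.12 for Ly86. Over single arrays left out, Tlr4 ran from -0.20 to 0.037 for CH minus CN, from -0.043 to 0.25 for TH minus TN, from -0.25 to 0.043 for TN minus CN and from -0.037 to 0.20 for TH minus CH. Its genotype difference ran from -0.10 to 0.051 in the fit and from -0.075 to 0.041 in the permutation test. Cd14 ran from -0.38 to 0.38 for CH minus CN and from -0.022 to 0.30 for the genotype difference, which ran from -0.062 to 0.036 for Lbp and from -0.19 to 0.051 for Cd180. The difference of effects ran from -0.79 to 0.15 for Ly96 and from -0.13 to 0.32 for Aoah. The next brightest probe set was not tried, since each gene has 1. The cause of these changes was not tested, and the number of arrays limits all of them.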
